A study of Mus musculus with 8 samples.

Results

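The regions described here are stretches of chromatin that carried an ATAC-seq peak in every lipopolysaccharide (LPS) library of mouse macrophages, whatever the genotype, and in no untreated library. They were chosen by joining peaks of the 8 deposited lists that shared at least 1 bp and keeping joined regions on chromosomes 1 to 19 with a peak in all 4 LPS lists and none of the 4 untreated lists. That gave 3658 of 75252 joined regions on these chromosomes, or 4.86%, out of 76751 on all chromosomes. ATAC-seq marks open DNA by where the Tn5 transposase can place adapters, and the study asked how LPS alters accessibility and what Lamin-A contributes. The cells were bone-marrow-derived macrophages, cultured for 7 days, in 4 groups of 2 libraries. These were Lamin-A knockout (KO) cells with LPS for 6 h, wild-type (WT) cells with LPS for 6 h, KO cells left untreated and WT cells left untreated. All groups were frozen in medium with 5% DMSO and thawed before tagmentation. The labels used here give neither the LPS dose nor the targeted part of Lmna nor the animals behind each library. The spread between the 2 libraries of a group may therefore be technical. For the LPS libraries the source names carry the word untreated as well, and their titles and treatment fields were followed. Peak lists hold no expression, so the loss of Lamin-A was not checked.

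LPS, a component of the outer membrane of Gram-negative bacteria, is sensed by macrophages through TLR4. The receptor signals through MyD88 and TRIF to NF-kB, AP-1 and interferon regulatory factors, which drive cytokine, chemokine and interferon genes. In resting macrophages the factor PU.1, together with C/EBP and AP-1 members, keeps many enhancers open, and stimulation is known to open further ones that were not marked before. The labelled cell type was checked on marker genes: 8 of 8 macrophage markers, such as Spi1, Csf1r and Adgre1, had a region called in all 8 libraries within 50 kb, and so did 23 of 43 markers of other cell types, among them 3 of 3 dendritic and 6 of 7 stromal and endothelial markers. The lists held 45442 to 59750 peaks after LPS and 44504 to 55064 peaks without it. Read totals were not used here, so the depth behind a call is unknown. The absence of a peak means no call and does not show that the DNA was closed, and fewer open cells cannot be told apart from weaker opening in each cell.

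Few LPS-opened regions lay on promoters, and those that did are shown first because their sequence can be read. Of 31396 RefSeq promoter windows on these chromosomes (GRCm38.p6, which is the mm10 build, each 250 bases before and 50 bases after a listed start), 61 windows, or 0.194%, were overlapped by an LPS-opened region, against 9964 windows (31.7%) overlapped by regions called in all 8 libraries. These window shares also grow with the number of regions, and 3658 were LPS-opened while 30395 were called in all 8 libraries. By region, 3.88% of the 3532 LPS-opened regions with listed starts to compare had a summit within 1 kb of a start. The share was 28.4% for regions called in all 8 libraries. The 61 windows belonged to 56 gene symbols, 27 of them protein-coding, and to 57 LPS-opened regions. The 8 sequences below are the 250 bases upstream of the start for genes of inflammation or immune recognition. They were picked after their values were seen, to show the motifs that recur or are missing. Serpinb2 encodes plasminogen activator inhibitor type 2, Il1a the alarm cytokine interleukin-1 alpha, Il11 a cytokine of the interleukin-6 family, and Cd80 a co-stimulatory ligand for T cells. Klrk1 encodes the receptor NKG2D, Lcn2 the siderophore-binding protein lipocalin-2 and Ifitm7 a member of the interferon-induced transmembrane family, while AW112010 is listed as non-coding. Each is written 5′ to 3′ on the gene's own strand, and capitals mark matches on either strand to the motifs of NF-kB, AP-1, ISRE, GAS, PU.1, EICE or C/EBP spelled out in the next paragraph.
Serpinb2, chr1:107511173-107511422, plus strand: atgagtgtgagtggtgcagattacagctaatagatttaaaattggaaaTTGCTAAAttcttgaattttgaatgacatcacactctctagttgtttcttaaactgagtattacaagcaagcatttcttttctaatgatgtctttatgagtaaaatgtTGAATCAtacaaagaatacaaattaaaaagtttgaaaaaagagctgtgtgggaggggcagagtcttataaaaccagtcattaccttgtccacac
Il1a, chr2:129309973-129310222, minus strand: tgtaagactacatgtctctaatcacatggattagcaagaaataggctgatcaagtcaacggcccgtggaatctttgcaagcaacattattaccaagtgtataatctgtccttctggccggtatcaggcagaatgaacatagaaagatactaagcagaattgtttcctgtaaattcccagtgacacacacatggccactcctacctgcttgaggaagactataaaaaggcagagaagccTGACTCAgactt
Il11, chr7:4778142-4778391, minus strand: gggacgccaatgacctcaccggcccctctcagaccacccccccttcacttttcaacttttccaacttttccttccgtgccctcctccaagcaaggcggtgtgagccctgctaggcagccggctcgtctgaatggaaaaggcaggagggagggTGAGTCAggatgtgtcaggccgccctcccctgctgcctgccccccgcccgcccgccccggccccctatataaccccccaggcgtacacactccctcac
Cd80, chr16:38458683-38458932, plus strand: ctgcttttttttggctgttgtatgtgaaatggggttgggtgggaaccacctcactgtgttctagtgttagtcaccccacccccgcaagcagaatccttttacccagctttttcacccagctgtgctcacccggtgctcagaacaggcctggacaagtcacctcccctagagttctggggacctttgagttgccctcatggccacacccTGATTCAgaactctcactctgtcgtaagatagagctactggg
Klrk1, chr6:129623865-129624114, minus strand: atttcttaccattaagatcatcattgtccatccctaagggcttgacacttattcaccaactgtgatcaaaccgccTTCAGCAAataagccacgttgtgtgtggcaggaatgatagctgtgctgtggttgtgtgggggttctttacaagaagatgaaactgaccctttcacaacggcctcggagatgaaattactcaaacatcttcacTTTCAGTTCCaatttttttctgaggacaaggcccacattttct
Lcn2, chr2:32387740-32387989, minus strand: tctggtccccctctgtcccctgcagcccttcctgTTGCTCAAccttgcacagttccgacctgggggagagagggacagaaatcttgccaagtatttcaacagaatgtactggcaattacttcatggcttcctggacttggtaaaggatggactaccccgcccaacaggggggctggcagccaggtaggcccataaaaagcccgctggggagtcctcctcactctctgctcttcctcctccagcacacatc
AW112010, chr19:11050567-11050816, minus strand: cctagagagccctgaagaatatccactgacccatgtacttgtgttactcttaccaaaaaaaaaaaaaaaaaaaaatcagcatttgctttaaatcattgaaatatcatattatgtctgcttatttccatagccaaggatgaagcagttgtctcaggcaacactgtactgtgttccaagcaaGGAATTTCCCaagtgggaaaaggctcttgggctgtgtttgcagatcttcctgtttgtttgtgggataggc
Ifitm7, chr16:13986868-13987117, minus strand: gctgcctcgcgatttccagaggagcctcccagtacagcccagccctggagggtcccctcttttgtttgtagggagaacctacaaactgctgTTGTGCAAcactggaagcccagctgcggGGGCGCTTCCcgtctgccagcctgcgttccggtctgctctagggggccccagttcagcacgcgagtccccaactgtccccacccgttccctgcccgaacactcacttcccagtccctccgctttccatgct
In the Serpinb2 window the AP-1 match TGAATCA began 94 bases before the start, and in Il11 the match TGAGTCA began 98 bases before it. Il1a carried TGACTCA 12 bases before its start and Cd80 carried TGATTCA 42 bases before its start. Klrk1 had no AP-1 match upstream, although TGACTCA followed 17 bases after its start. The only NF-kB matches among these 8 were in AW112010, where GGAATTTCCC began 70 bases upstream, and in Ifitm7, where GGGCGCTTCC began 131 bases upstream.

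The AP-1 letters were the most frequent of the 7 capitalised motifs in promoter windows overlapped by LPS-opened regions. TGANTCA (AP-1), searched on both strands as were all motifs, was found in 19 of 61 windows (31.1%, 95% Wilson interval 20.9 to 43.6), against 5.29% of the 9964 windows at regions called in all 8 libraries and 7.84% of all 31396 windows. TTGCNNAA (C/EBP) was found in 27.9% of the 61 windows, against 8.09% of windows at regions called in all 8 libraries and 10.9% of all windows. GGG followed by any 3 bases and TTCC (NF-kB) was found in 11.5% (interval 5.67 to 21.8), against 6.82% and 5.61% of those same comparison sets, and the lower bound of the interval lies between them. For GGAA, any 2 bases and GAAA (EICE, a composite of ETS and IRF sites) the share was 9.84%, against 2.27% at regions called in all 8 libraries and 2.74% of all windows. It was 4.26% when every list was cut at a -log10 p of 20 and 6.12% with equal numbers of peaks per list, and with equal numbers the C/EBP share was 18.4%. TTCNNNGAA (GAS, bound by STAT factors) was in 13.1% of the 61 windows, against 6.42% and 8.35%. GAAA, any 2 bases and GAAA (ISRE) and GAGGAAGT (PU.1) were each in 4.92% of them, against 3.24% and 3.52% of windows at regions called in all 8 libraries, and 3.46% and 3.25% of all windows. With the cut at 20 the ISRE share was 2.13%. EICE and ISRE letters can overlap, and AP-1 matches were counted once where both strands read the same.

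Of the letters common in housekeeping promoters, those of SP factors were less frequent in windows at LPS-opened regions, and the intervals of the other 3 hold the share of all windows. GGGCGG (SP factors) was in 23.0% of the 61 windows (interval 14.2 to 34.9), against 67% of windows at regions called in all 8 libraries and 36.0% of all windows. CACGTG (E-box) was in 6.56% (10.6% without WT LPS replicate 1), against 11.0% and 7.14%, and CCAAT (NF-Y) in 36.1%, against 39.3% and 37.3%. TGACGTCA (CRE) was in 1 of 61 windows, or 1.64% (2.63% without KO LPS replicate 2), against 3.81% and 1.83%. The median GC content was 48.7% in the 61 windows, 62.0% at regions called in all 8 libraries and 53.0% over all windows, and the median number of CG dinucleotides was 4, 22 and 7 per window. The part of base composition in the motif shares was not tested. Requiring at least 150 bases of overlap, a choice made after the data were seen, left 38 windows, of which 44.7% held the AP-1 letters, 34.2% C/EBP, 15.8% NF-kB, 13.2% EICE, 7.89% GAS, 2.63% ISRE and 2.63% the E-box. The GAS, ISRE and E-box shares were then below those of all windows. SP letters were in 23.7% of the 38 windows, and their interval of 13.0 to 39.2 then holds the 36.0% of all windows. The letters TATAAA, searched on the gene's strand 50 to 15 bases before the start after these sequences had been read, were in 2 of the 61 windows (3.28%), those of Il1a and Serpinb2, against 0.984% at regions called in all 8 libraries and 2.34% of all windows.

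**Figure D1:**
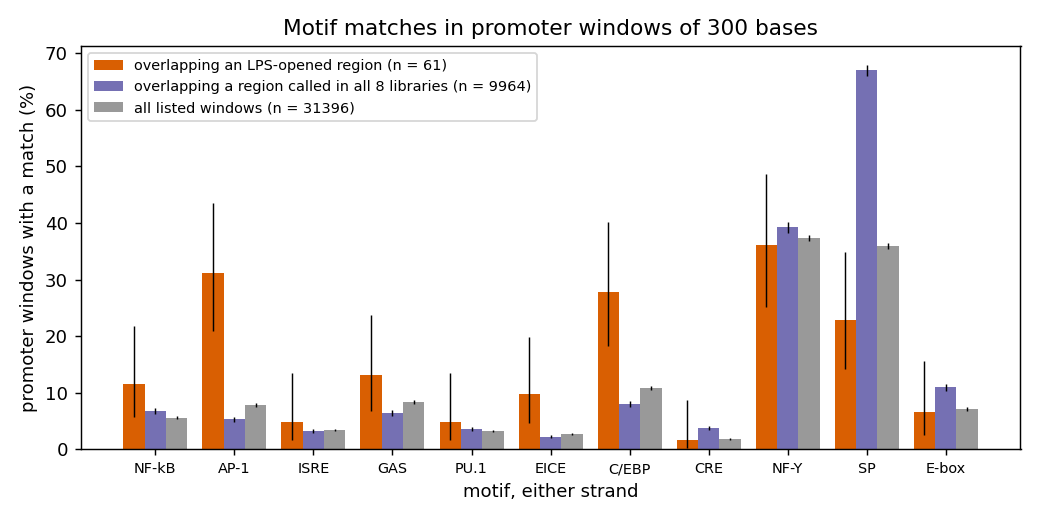
Share of promoter windows of 300 bases with at least 1 match to each of 11 motifs (vertical axis, percent), with 95% Wilson intervals as black lines that cover counting error only. Orange bars are the 61 windows overlapping an LPS-opened region, purple bars the 9964 windows at regions called in all 8 libraries and grey bars all 31396 windows; AP-1 reaches 31.1% in orange and SP letters 67% in purple.

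The opened regions at these promoters ranged from weak to moderately strong, with mean percentiles (explained in the next paragraph) of 8.73 at Cd80 to 73.1 at Serpinb2, and every one was absent from all 4 untreated lists by the way they were chosen. Strength is given as the fold enrichment over local background that the authors' peak caller computed within 1 library. How often KO and WT LPS folds fail to overlap over all regions was not counted, here or in later paragraphs. The Serpinb2 region (chr1:107511055-107511613) had folds of 10.3 and 11.6 in the KO LPS libraries and 10.6 and 10.0 in the WT LPS libraries. For the Il1a promoter region (chr2:129309835-129310178) they were 4.60 and 5.46 in KO LPS and 5.51 and 4.99 in WT LPS. These 2 genes thus showed overlapping values between genotypes. The Lcn2 region (chr2:32387744-32388365) had 6.56 and 6.08 in KO LPS and 7.53 and 6.2 in WT LPS. At Il11 (chr7:4777943-4778419) the folds were 3.80 and 4.21 in KO LPS and 3.73 and 3.79 in WT LPS, and at Cd80 (chr16:38458699-38458953) 4.06 and 3.73 in KO LPS and 3.39 and 3.90 in WT LPS. The genotypes overlapped at Cd80, while both KO values exceeded both WT values at Il11. The Ifitm7 region (chr16:13986764-13987170) had 5.51 and 4.59 in KO LPS and 6.58 and 5.66 in WT LPS, and both KO values lay below both WT values there. Klrk1 (chr6:129623719-129624177) had 9.79 and 7.12 in KO LPS and 7.65 and 10.1 in WT LPS, and AW112010 (chr19:11050323-11050749) had 5.85 and 6.16 in KO LPS and 4.98 and 4.84 in WT LPS.

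Across all 3658 LPS-opened regions, strength ran from the edge of detection to the top of each list. The percentile of a peak is its rank by -log10 p among all peaks of the same list, with 100 the strongest, and a region's strength is the mean over the 4 LPS lists. It ranged from 2.63 to 96.4 with a median of 39.1. The weakest of a region's 4 calls had a -log10 p of 9.50 at the lowest, 22.2 at the median and 197 at the highest, where the lists themselves started at 7.35 to 7.93. In 2164 regions, or 59.2%, all 4 calls reached a -log10 p of 20. These values entered the choice of the regions and are a description only. Just inside the rule, the weakest regions lay in Asgr1 and nearest to Msc and Ccdc71l, with mean percentiles of 3.28, 2.85 and 2.63. Just outside it were 1078 regions with a peak in all 4 LPS lists and in 1 untreated list, where that single untreated peak had a median percentile of 10.0 to 11.6 depending on the list. A further 1908 regions had 3 LPS lists and no untreated list, and in 1001 of these the missing list was that of KO LPS replicate 2, the shortest LPS list. The strongest near miss (chr10:19209608-19210133, mean percentile 96.7) had folds of 19.2 and 20.4 in KO LPS and 21.2 and 21.0 in WT LPS, with 5.36 in WT untreated replicate 2. Next were regions inside Alcam and Tnip1, at 94.5 and 93.4. The strongest with 3 LPS lists were near Rnf24, in Mfhas1 and near Gm38457, at 56.9, 54.6 and 54.1.

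The 20 strongest LPS-opened regions sat away from gene ends: 10 lay inside a gene, 3 outside a gene but within 50 kb of one, 7 farther away and none within 1 kb of a gene end. The strongest of all (chr1:155108421-155108943, 9.05 kb from Ier5, an immediate early gene) had folds of 16.5 and 14.4 in KO LPS and 17.5 and 15.7 in WT LPS. A region inside Slco3a1 (chr7:74527581-74528130), which encodes an organic anion transporter, had 12.3 and 12.1 in KO LPS and 13.4 and 12.3 in WT LPS. A region inside Rbbp8 (chr18:11727856-11728468), the gene of the DNA end resection factor CtIP, had 19.2 and 17.8 in KO LPS and 20.9 and 20.2 in WT LPS. All KO values lay below all WT values at Rbbp8. At 22.1 kb from Il10, the gene of an anti-inflammatory cytokine, a region (chr1:130997422-130997996) had 12 and 11.1 in KO LPS and 9.86 and 10.6 in WT LPS. Itga4, the gene of integrin alpha 4, was 87.2 kb from a region (chr2:79167913-79168499) with 16.5 and 18.2 in KO LPS and 18.4 and 17.9 in WT LPS. A region 138 kb from Tnfaip3 (chr10:19152788-19153307), whose product A20 restrains NF-kB signalling, had 17.0 and 15.7 in KO LPS and 18.5 and 18.2 in WT LPS. Others lay inside Rap1gap2, Trio, Lpp, Ints3, Aopep, Dst, Denr and Alpk2, or nearest to Eci2, Fcrlb, Helt, Ercc6l2, Tbl1xr1 and Sgip1. By percentile, both KO LPS values were below both WT LPS values in 8 of these 20 regions and above them in 1, and the genotypes overlapped in 11. Over all LPS-opened regions 41.8% were below and 9.51% above, and over all regions called in the 4 LPS lists 47.1% and 8.38%, so these 20 lay near the general shares.

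**Figure D2:**
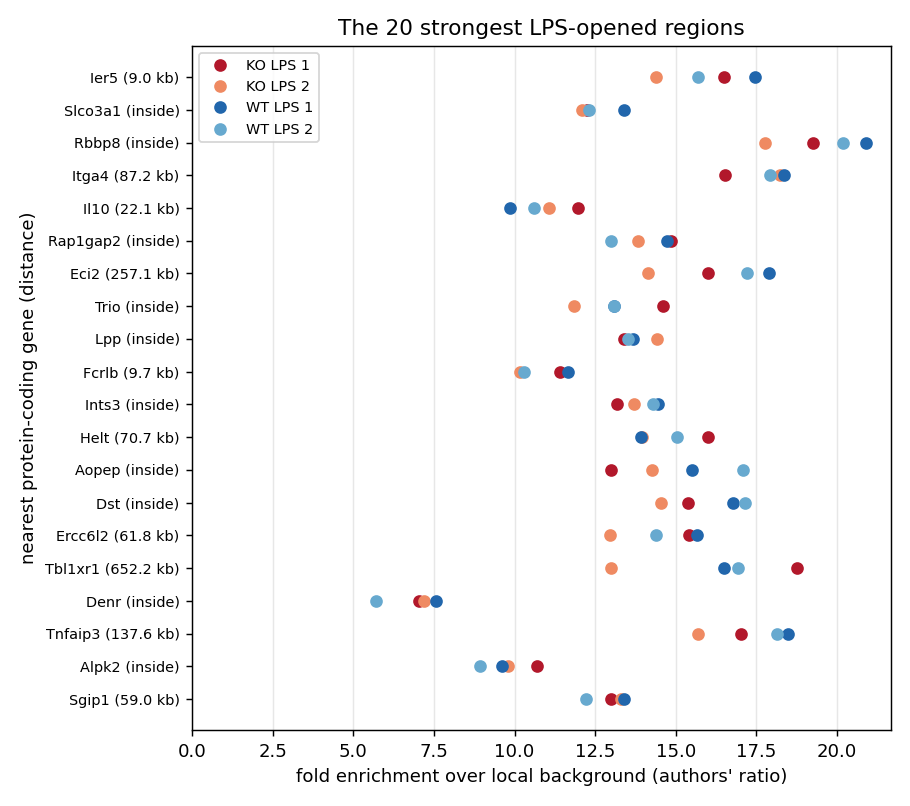
Fold enrichment over local background (horizontal axis, the authors' ratio) of the 20 strongest LPS-opened regions in each of the 4 LPS libraries, 1 point per library, with red and orange for KO LPS and dark and light blue for WT LPS. Rows are named by the nearest protein-coding gene with its distance, strongest mean percentile at the top; folds run from 5.71 to 20.9.

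Relative to the other regions, LPS-opened regions were distal. Only 169 of them (4.62%, 95% Wilson interval 3.99 to 5.35) had their summit within 1 kb of either end of a protein-coding gene, against 28.9% of the 30395 regions called in all 8 libraries (interval 28.4 to 29.4) and 17.3% of all joined regions. Within 1 kb of a listed transcription start the shares were 3.88% of the 3532 LPS-opened regions outside chromosome 18, against 28.4% of regions called in all 8 libraries and 16.6% of all. The median distance to the nearest gene end was 20.9 kb, against 7.51 kb for regions called in all 8 libraries and 11.9 kb for all. More than 50 kb from any protein-coding gene lay 565 of them, or 15.4%, against 7.94% of regions called in all 8 libraries and 10.2% of all. The share inside gene spans differed little, at 52.1% of LPS-opened regions, 53.8% of regions called in all 8 libraries and 55.4% of all. Regions called in the 4 untreated and no LPS list, the mirror set, numbered 1353 and had 8.72% at gene ends. The mirror set was nearly as distal, with a median distance of 17.4 kb to a gene end and 13.5% beyond 50 kb. Position was not used in choosing the regions. Their peaks were also weaker, with median percentiles of 34.8 to 47.3 in the 4 LPS lists, against 63.6 to 72.8 for regions called in all 8 libraries, and the part of strength in these shares was not tested.

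**Figure D3:**
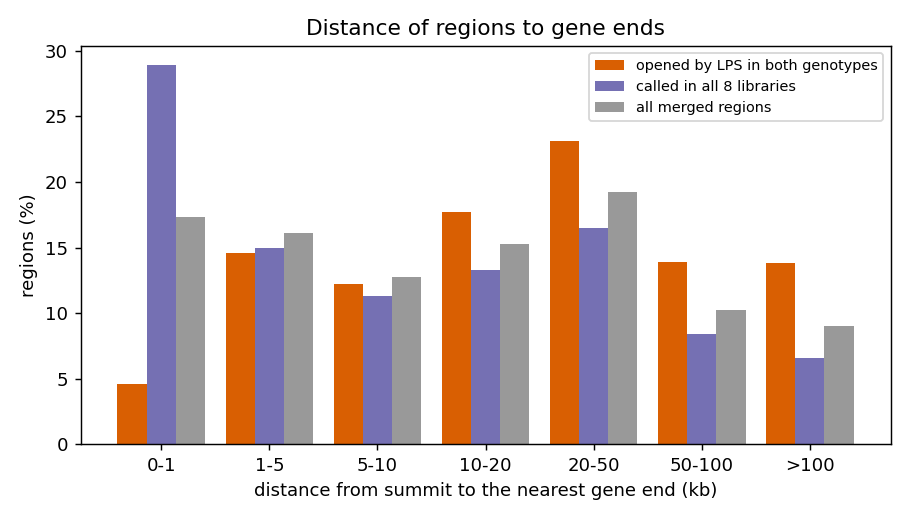
Percent of regions (vertical axis) by distance in kb between summit and closest protein-coding gene end (horizontal axis). Orange bars are LPS-opened regions, purple bars regions called in all 8 libraries and grey bars all joined regions; in the first bin orange stands at 4.62% and purple at 28.9%.

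LPS-opened regions were narrower than regions open throughout. The median joined width was 390 bp, against 540 bp for regions called in all 8 libraries, which join peaks of 8 lists and not 4. It was 396 bp over all joined regions and 371 bp in the mirror set. Of the LPS-opened regions 15 reached 1 kb. The widest spanned 1753 bp near Sdc4 (chr2:164421807-164423559), the gene of the proteoglycan syndecan-4, with folds of 3.30 and 2.99 in KO LPS and 4.15 and 3.75 in WT LPS. It was followed by regions near Cdc37, Insl6 and Gbp5 and inside Nlk, of 1304, 1254, 1229 and 1195 bp. The summits of the 4 LPS peaks of a region spread over a median of 55 bp, with a middle range of 35 to 81 bp, against a median of 47 bp at regions called in all 8 libraries. The nearest region called in all 8 libraries was 10.0 kb away at the median, summit to summit, and 49.9% of LPS-opened regions had one within 10 kb. By chromosome, their share of joined regions ran from 3.70% on chromosome 9 to 6.17% on chromosome 10.

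Within the LPS libraries, the opened regions had lower median rank, enrichment and width in KO than in WT cells, with no overlap between the libraries, and so did regions open throughout. The regions had to be called in all 4 LPS lists, and that condition bears unequally on the genotypes, since a missing KO LPS list kept out 491 and 1001 regions and a missing WT LPS list 124 and 292. The values are therefore a description with no test. The median percentile of the LPS-opened regions was 37.6 and 34.8 in KO LPS and 47.3 and 43.0 in WT LPS, so that the 2 KO values lay below both WT values. The group means were 36.2 ± 2.0 in KO LPS and 45.1 ± 2.98 in WT LPS (SD, n = 2 each), a difference of -8.95 percentile points, and 2 libraries against 2 could not pass a test in any case. Median fold enrichment was 6.43 and 6.12 in KO LPS and 7.19 and 6.70 in WT LPS (difference -0.670). Median peak width was 322 and 306 bp in KO LPS and 353 and 342 bp in WT LPS (difference -33.5 bp). At regions called in all 8 libraries the percentile difference was -6.31, the fold difference -0.916 and the width difference -48.5 bp. The percentile difference of LPS-opened regions minus that of regions called in all 8 libraries was -2.64 points, while for fold and width this contrast had the other sign, at 0.245 and 15 bp. Without WT LPS replicate 1 the fold difference at the opened regions was -0.365.

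The KO LPS lists were shorter, with 49661 and 45442 peaks against 59750 and 55357 in WT LPS, and percentiles depend on the length of a list. When each list was cut to its strongest peaks so that all held the same number, the percentile difference between KO and WT LPS at the opened regions turned to 1.18. The fold and width differences kept their direction there, at -0.887 and -43 bp. Taken region by region with the lists as deposited, both KO percentiles were below both WT percentiles in 1529 LPS-opened regions (41.8%), where 47.1% of all 38371 regions called in the 4 LPS lists did so. Both were above in 348 (9.51%), where the share over those regions was 8.38%. Equal list lengths also changed the set, to 3354 LPS-opened regions among 34358 called in the 4 LPS lists, and 73.7% of the 3658 were kept. The counts were then 732 below (21.8%, against 24.2% of all regions called in the 4 LPS lists) and 850 above (25.3%, against 21.8%). The direction of the percentile difference thus changed with equal list lengths, which alter both the ranks and the set of regions. Counts with an LPS library left out cannot be compared with these. A group then holds 1 library, where non-overlap is easier to meet, and the rule asks for 3 LPS lists.

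**Figure D4:**
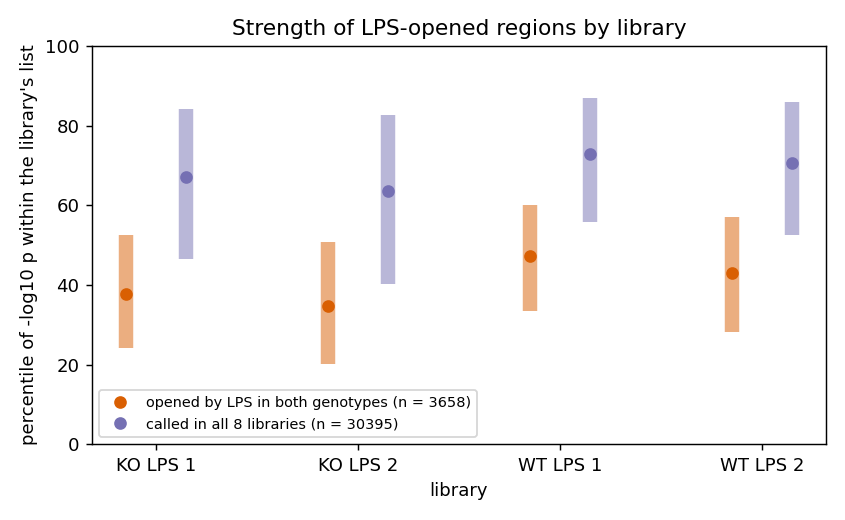
Percentile of -log10 p within the library's own list (vertical axis) for the 4 LPS libraries (horizontal axis). Points are medians and bars the interquartile range, orange for the 3658 LPS-opened regions and purple for the 30395 regions called in all 8 libraries; orange medians run from 34.8 to 47.3, with both KO LPS medians below both WT LPS medians.

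Single regions differed by far more than the medians did. The largest losses of rank in KO LPS among regions whose genotypes did not overlap were inside Pla2g12a, at -57.6 percentile points, inside Fggy, at -56.7, and 13.2 kb from Dusp1, at -53.7, followed by Mtmr6 and Zfp456. At Dusp1, which encodes a phosphatase that switches off MAP kinases, the region (chr17:26521309-26521885) had folds of 4.35 and 4.44 in KO LPS and 7.61 and 7.82 in WT LPS. A second opened region near Dusp1 (chr17:26530049-26530295, 21.7 kb away) went the other way, with 3.34 and 2.99 in KO LPS and 2.82 and 2.66 in WT LPS. The Pla2g12a region (chr3:129892943-129893463) had 4.90 and 6.58 in KO LPS and 11.6 and 15.7 in WT LPS. In the other direction stood regions near Trim36, inside Kif26b, near Eea1, near Gm42166 and inside Lpp, from 43.2 to 39.3 points higher in KO LPS. The Trim36 region (chr18:46064641-46064992) had 11.6 and 8.43 in KO LPS and 5.20 and 5.66 in WT LPS. These 10 were picked as the extremes of 3658, and with 2 libraries a group no single region can pass a test.

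Assigned to the nearest protein-coding gene within 50 kb, 3093 LPS-opened regions fell on 2194 genes, or 14.8% of the 14859 genes with any region. Genes with an opened region also had more regions in all, 9.93 on average against 4.55, so a gene with many regions had more chances to hold one. Shares are therefore given per region as well, where the level over all assigned regions was 4.58%. Over 14 gene lists, 118 of 432 genes with a region (27.3%) held at least 1 opened region. The lists were drawn up with earlier results of these data known, so their shares and ranking below are a description only. Of their 204 opened regions, both KO LPS percentiles were below both WT LPS percentiles in 71 (34.8%) and above in 30 (14.7%). Over all LPS-opened regions these shares were 41.8% and 9.51%, and over all regions called in the 4 LPS lists 47.1% and 8.38%. For all LPS-opened regions that balance turned with equal list lengths, as described above.

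Inflammatory cytokine and enzyme genes had the highest share. An opened region was found at 20 of 37 genes, and 32 of 268 regions (11.9%) were LPS-opened. Il10 and Inhba, the gene of an activin subunit, held 4 each, Tnfsf15 held 3, and Il1a, Il15, Nos2 and Ptgs2 held 2 each. Apart from its promoter region, Il1a had one 5.92 kb away (chr2:129315883-129316361) with folds of 5.13 and 5.15 in KO LPS and 5.66 and 5.95 in WT LPS. Regions near Il1b and Il6 were singled out after their values were seen. Near Il1b, the gene of interleukin-1 beta, the opened region (chr2:129387599-129388201, 16.7 kb away) had 7.30 and 6.32 in KO LPS and 10.3 and 10.7 in WT LPS. Both KO values were below both WT values at Il1b. They were so too 40.1 kb from Il6 (chr5:29972826-29973257), with 8.26 and 5.93 in KO LPS and 10.4 and 10.9 in WT LPS. Median folds of all LPS-opened regions were also lower in KO LPS, at 6.43 and 6.12, than in WT LPS, at 7.19 and 6.70. At 0.172 kb from an end of Saa3, which encodes an acute-phase apolipoprotein, the region (chr7:46719566-46720004) had 7.53 and 6.56 in KO LPS and 6.25 and 8.05 in WT LPS. The region 0.308 kb from the end of Ptgs2, the gene of the prostaglandin-producing cyclooxygenase-2, had 4.32 and 3.93 in KO LPS and 4.12 and 4.21 in WT LPS. Of Nos2, the inducible nitric oxide synthase, the region inside the gene (chr11:78943027-78943424) had 4.42 and 4.13 in KO LPS and 3.32 and 2.55 in WT LPS, with both KO values above both WT values. Tnf, Il12b and Acod1, singled out after their values were seen, had none among their 3, 6 and 12 regions, while 2, 3 and 6 of these were called in all 8 libraries.

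Genes of the NF-kB pathway and its feedback came next, with 36 of 329 regions (10.9%) on 18 of 34 genes. Nfkb1, the gene of the p105 precursor of the p50 subunit, held 6 opened regions, 5 of them inside the gene, and folds over these 6 ran from 3.97 to 11.2. The strongest of them (chr3:135640119-135640677) had 10.0 and 10.1 in KO LPS and 11.2 and 11.0 in WT LPS. Tnfaip3, Nfkbiz and Nfkbia, whose products feed back on NF-kB, held 3 each. The Tnfaip3 region 1.29 kb from the gene (chr10:18998771-18999870) was 1100 bp wide and had 4.65 and 3.77 in KO LPS and 4.33 and 4.52 in WT LPS. Malt1, Traf1 and Rela held 2 each, and the Rela region 0.650 kb from the gene's end (chr19:5636579-5637006) had 4.52 and 3.57 in KO LPS and 3.39 and 4.16 in WT LPS. The Nfkb2, Rel and Relb genes, singled out after their values were seen, had none among 2, 10 and 2 regions.

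Receptors and brakes of LPS signalling held 16 opened regions among 237 (6.75%), on 9 of 33 genes. Irak3, which encodes the inhibitory kinase IRAK-M, had 5, the strongest inside the gene (chr10:120191147-120191627) with folds of 7.36 and 8.21 in KO LPS and 7.65 and 8.25 in WT LPS. Socs3, a cytokine signalling inhibitor, had 2 opened regions, both within 1 kb of a gene end. The wider of these (chr11:117965034-117965970) had 2.59 and 2.82 in KO LPS and 2.54 and 2.44 in WT LPS, among the lowest folds of any list. Cish, of the same family, and Clec4e, the gene of the glycolipid receptor Mincle, had 1 each within 1 kb of a gene end. The Clec4e region (chr6:123290511-123291017) had 5.56 and 4.83 in KO LPS and 4.07 and 4.26 in WT LPS, both KO values above both WT values. Tlr4, the LPS receptor gene itself, had none among its 10 regions and 1 that was called in all 4 untreated lists but no LPS list.

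Interferon response genes had 22 opened regions among 292 (7.53%), on 13 of 49 genes, and chemokine genes had 8 among 109 (7.34%), on 4 of 18. The interval of the chemokine share, 3.77 to 13.8, holds the 4.58% over all assigned regions. Irf2 held 4, Ifnar2 held 3, and Stat3, Gbp7 and Ifi44 held 2 each. Stat3, which encodes a transducer of cytokine signals, carried an intragenic region (chr11:100933773-100934278) with folds of 8.95 and 8.98 in KO LPS and 8.56 and 9.17 in WT LPS. The genotypes overlapped at Stat3. Without KO LPS replicate 2, where the rule asks for 3 LPS lists and is easier to meet, the interferon list had 21 genes with an opened region in place of 13. At Oas1a, which makes the activator of RNase L, the region near the gene end had 4.30 and 4.59 in KO LPS and 4.25 and 3.95 in WT LPS, and at the Gbp7 end 8.01 and 8.24 in KO LPS and 9.24 and 9.82 in WT LPS. Of the chemokine genes, Ccl5 held 4 opened regions in 12.7 kb. The one 0.098 kb from Ccl5 (chr11:83530308-83530823) had 5.86 and 5.75 in KO LPS and 4.83 and 4.55 in WT LPS, and both KO values exceeded both WT values. Cxcl1 held 2 and Ccl22 and Cxcl5 1 each, while the other 14 chemokine genes with a region had none.

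The other immune and macrophage lists ranged from 8.24% to 5.34%. Antigen presentation and co-stimulation genes had 21 of 255 regions opened (8.24%), on 13 of 30 genes, with 4 at Cd47, the "do not eat me" signal, and 3 at the adhesion molecule gene Alcam. Regions at gene ends in that list were at H2-K1, a class I histocompatibility gene, and at Nlrc5, its transactivator. Scavenging, lipid and alternative activation genes had 20 of 276 (7.25%), on 12 of 30 genes, with 4 at the purinergic receptor gene P2ry2, 3 at the cystine transporter gene Slc7a11, and 1 at the gene end of Msr1, the scavenger receptor A gene. AP-1 and immediate early factors had 16 of 262 (6.11%, interval 3.79 to 9.69), with 5 at Hif1a and 3 at Ier5. Macrophage identity genes had 19 of 356 (5.34%, interval 3.44 to 8.18), with 6 at Mitf, 3 at Zeb2 and 2 at the formyl peptide receptor gene Fpr1. The AP-1 and macrophage identity intervals hold the 4.58% over all assigned regions. The Fpr1 region outside the gene (chr17:17884721-17885168) had folds of 13.0 and 10.5 in KO LPS and 10.8 and 9.58 in WT LPS. Markers of other cell types had 6 of 115 (5.22%), at Cdh5, Siglech, Flt3, Ms4a1 and Pdgfrb, and their share was below the overall level with the cut at 20 (4.55%, against 4.78% overall) and with equal numbers (3.06%, against 5.01% overall).

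The lists of general cell functions had the lowest shares. Glycolysis and hypoxia genes had 4 of 159 regions opened (2.52%, interval 0.983 to 6.29), at Pfkfb3, Upp1 and Egln1. Cell cycle genes had 3 of 150 (2.0%, interval 0.682 to 5.71), all inside Cdk6. Genes of the nuclear envelope and lamina had 1 of 120 (0.833%, interval 0.147 to 4.57), inside Tor1aip1, which encodes the lamina-associated protein LAP1. The upper end of that interval all but reaches the 4.58% over all assigned regions, and the share rests on 1 region. The nuclear envelope share was 3.23% with the cut at 20 and 2.97% with equal numbers. That region (chr1:156013987-156014270) had folds of 5.99 and 4.47 in KO LPS and 4.06 and 3.53 in WT LPS. Lmna itself had none among its 12 regions. Without KO LPS replicate 2, 3 nuclear envelope genes, 2 cell cycle genes and 1 ribosomal protein gene held an opened region, and without WT LPS replicate 2, 5 glycolysis and hypoxia genes did. The rule then asks for 3 LPS lists and is easier to meet. Ribosomal protein genes had 0 of 67, with an upper 95% Wilson limit of 5.42%, and like the glycolysis and cell cycle shares it cannot be told from 4.58% at this number of regions.

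**Figure D5:**
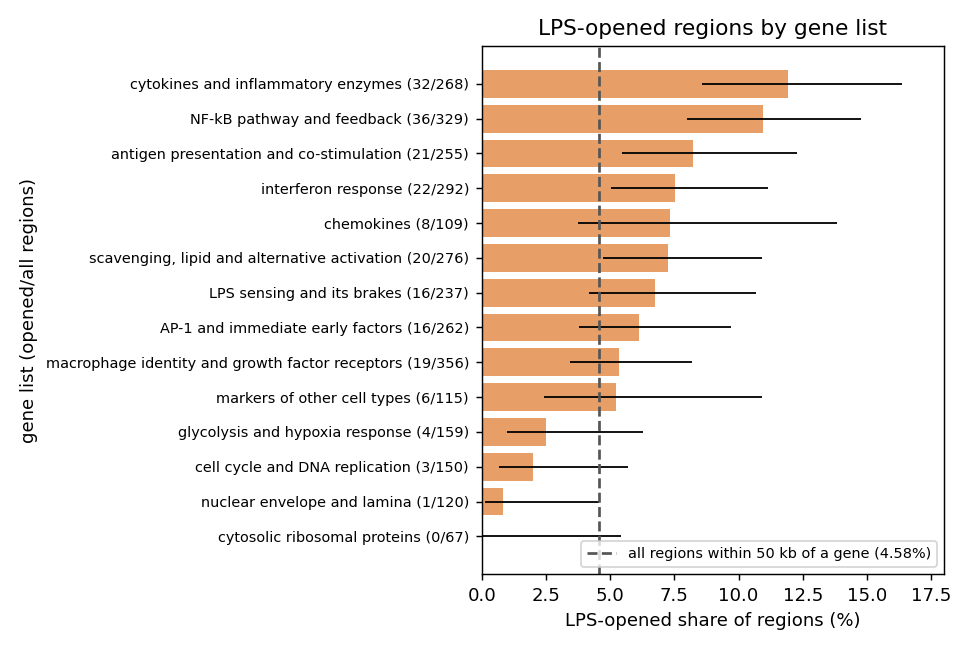
Percent of each gene list's regions that were LPS-opened (horizontal axis). Brackets hold the opened and total number of regions, and black lines are 95% Wilson intervals covering counting error only. The lists were drawn up with earlier results of these data known. The dashed line is the 4.58% over all regions within 50 kb of a gene; cytokine and NF-kB lists stand at 11.9% and 10.9%, ribosomal protein genes at 0.

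Some genes and intervals held several opened regions. Of the 2194 genes, 1633 had 1 opened region, 561 had at least 2 and 31 at least 5. Lpp, which encodes an adaptor of focal adhesions, had 14 among 93 regions, 12 of them inside its 599 kb span, with folds from 3.31 to 14.4. Hdac9, a histone deacetylase gene, had 9 among 41, and Met, the hepatocyte growth factor receptor gene, had 9 among 22. Slco3a1, Dst, the glutamate transporter gene Slc1a2 and Rcl1 had 8 each, Sipa1l1, Psd3, Camk2d and Rabgap1l 7 each, and Aopep, Nfkb1, Vps54 and Mitf 6 each. At Met, folds ran from 4.13 to 13.8, and the region with the highest fold (chr6:17549650-17550039) had 7.65 and 6.27 in KO LPS and 13.8 and 11.5 in WT LPS.

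With neighbours no more than 20 kb apart, 300 opened regions (8.20%) formed 88 clusters of at least 3. By the same rule all 75252 joined regions formed 7557 clusters, which held 82.3% of them. Those regions are far more numerous, and a set of equal size was not compared. Without KO LPS replicate 2, where the rule asks for 3 LPS lists and keeps more regions, there were 138 clusters. The largest cluster lay between Klf3 and the Tlr1 gene of a lipopeptide receptor (chr5:64841713-64900964), with 7 of 15 regions opened in 59.3 kb and 2 called in all 8 libraries. An interval between Olig3 and Tnfaip3 (chr10:19152788-19204343) held 6 opened regions among 11 in 51.6 kb, each 138 to 165 kb from the nearest protein-coding gene. The one at 150 kb from Tnfaip3 (chr10:19165529-19165947) had folds of 10.1 and 9.46 in KO LPS and 9.87 and 9.38 in WT LPS, and mean percentiles in the interval ran from 21.8 to 88.4. The strongest near miss described above lay just past its end. Clusters of 6 were also found at Vps54, near Lmo4 and 6.47 to 36.5 kb from Rcl1, where 6 of 8 regions were opened and none was called in all 8 libraries. Il10 (8.84 kb) and an interval 89.6 to 102 kb from Ptgs2 (12.6 kb) each held a cluster of 4 opened regions among 5, again with none called in all 8 libraries.

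Among microRNA genes, 81 of 919 hairpins on these chromosomes (8.81%) had an opened region within 20 kb. No comparison share was counted for this number. Those of Mir155, Mir21a, Mir125a and Mirlet7e, microRNAs known to respond to LPS or to act on this pathway, were among them and were picked after their distances were seen. Their main mature forms, from RefSeq on the same build, are shown to identify these microRNAs. Capitals mark the seed, bases 2 to 8.
mmu-miR-155-5p, chr16:84714143-84714165, plus strand: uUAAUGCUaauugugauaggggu
mmu-miR-21a-5p, chr11:86584120-86584141, minus strand: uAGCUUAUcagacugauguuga
mmu-miR-125a-5p, chr17:17830817-17830840, plus strand: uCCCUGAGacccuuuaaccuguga
mmu-let-7e-5p, chr17:17830366-17830387, plus strand: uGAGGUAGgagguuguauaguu
The 4 seeds differ from each other. The region 3.65 kb from Mir155 (chr16:84717858-84718987), whose product acts on many inflammatory transcripts, had folds of 3.54 and 3.65 in KO LPS and 3.38 and 3.14 in WT LPS. Both KO values lay above both WT values, and the region was 1 of 8 within 20 kb of the hairpin. At 12.1 kb from Mir21a the region (chr11:86596219-86596524) had 5.06 and 4.23 in KO LPS and 3.87 and 3.83 in WT LPS. A single region 18.1 kb from Mir125a and 18.5 kb from Mirlet7e (chr17:17848935-17849393) had 3.75 and 3.43 in KO LPS and 4.78 and 3.84 in WT LPS. Mir146, Mir146b and Mir147, also known for induction by LPS, had no opened region within 20 kb, and the nearest were 790, 27 and 68.6 kb away.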

How the data were processed

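ATAC-seq peak lists of 8 libraries were used as deposited, 1 list for each library, with replicates not pooled. Reads were aligned with BWA 0.7.12 and peaks called with MACS2 on mm10, per the submitters' processing notes; the filter behind the lists is not given in the sources used here. Each deposited peak carried the authors' fold enrichment over local background (a ratio), a -log10 p and -log10 q, a score and a summit offset, and these were taken as the authors' own values to describe and rank peaks within a list. Peaks overlapping by at least 1 bp were merged. The regions and the gene lists were chosen with earlier results of these data known.

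Genes were 21887 protein-coding RefSeq genes on GRCm38.p6 without strand. A region was assigned to the nearest gene within 50 kb of its mean summit. Of 468 list genes, 465 matched. Promoter windows of chromosome 18 were not used here. No genome was used, so motifs were searched in promoter windows and not around summits. KO and WT LPS lists were compared by 1 median per library; the planned exact two-sided permutation, which cannot go below 0.333 with 2 against 2, is not used as a test because the regions were chosen on calls in these lists. Deviations of replicate 1 from its group mean correlated at 0.0191 between KO and WT LPS over 38371 regions. Pairing of other groups by replicate number was not checked. Replicate 1 had the longer list in both LPS groups, with 49661 against 45442 peaks in KO and 59750 against 55357 in WT. Genes named are the 20 strongest regions, the 15 genes with the most regions, up to 6 per list plus those at gene ends, the 5 largest differences each way, the 5 widest and the 5 largest clusters. The values of 1 gene that this rule names are not reported here. The steps were tested on simulated data, with Python 3.11.15, pandas 2.3.3 and SciPy 1.17.1. Wilson intervals cover counting error only. Alternatives were a stricter cut-off, equal list lengths, each library left out, and other distances and overlaps.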

Additional observations from a re-analysis of the deposited data

How the results depend on the processing

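The percentile difference between KO and WT LPS turned round: with equal numbers of peaks per library it was 1.18, against -8.95 with the lists as deposited, while the fold and width differences were -0.887 and -43 bp, in the same direction as reported. With equal numbers 3354 regions were LPS-opened, of which 732 were weaker in both KO LPS lists and 850 stronger. The number of LPS-opened regions was 2164 when LPS peaks needed a -log10 p of at least 20 and untreated lists were kept as deposited. With that cut-off in every list 59.2% of the 3658 regions were kept, and with equal numbers 73.7%. The share at gene ends was 1.91% within 0.5 kb and 9.10% within 2 kb, and clusters of at least 3 numbered 33 with gaps up to 10 kb and 215 with gaps up to 50 kb, as these limits are looser or tighter by construction. Leaving out 1 library at a time drops 1 condition of the rule, so higher counts of regions, genes and clusters follow largely by construction. Doing so gave 3774 to 4661 LPS-opened regions (highest without KO LPS replicate 2), 2251 to 2658 genes, 119 to 147 list genes and 91 to 138 clusters. Percentile differences were -11.2 to -6.27, fold differences -0.774 to -0.365 and width differences -43.0 to -26.5 bp. Weaker regions numbered 1550 to 2532 and stronger regions 369 to 939. At gene ends lay 4.59% to 5.12%, and NF-kB letters were in 9.38% to 14.5% of windows. The weaker and stronger counts moved by more than 1.5 times without KO LPS replicate 1 (2439 and 726), KO LPS replicate 2 (2532 and 939) and WT LPS replicate 2 (2349 and 713), the stronger count also without WT LPS replicate 1 (910), and the clusters without KO LPS replicate 2. Weaker and stronger counts with an LPS library left out cannot be compared with the main ones. A group then holds 1 library, where non-overlap is easier to meet, and the rule asks for 3 LPS lists. Whether replicate numbers pair the samples was checked between the KO and WT LPS groups only. Blocking by replicate number leaves the differences of -8.95, -0.670 and -33.5 bp unchanged by arithmetic, so it is no check of them. The cytokine list's share of opened regions was 15.5% and 15% with the stricter cut-off and equal numbers, that of the NF-kB list 10.9% and 11.6%, that of the nuclear envelope list 3.23% and 2.97% against 0.833% as reported, and that of markers of other cell types 4.55% and 3.06% against 5.22%. Motif windows of 100 and 400 bases around summits were not run, as no genome was used. Read depth is unknown, so a missing call limits every count here.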
